A study of Homo sapiens with 6 samples.

Results

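The genes described here are 42 members of the cholesterol, fatty acid and SREBP pathway, read from every probe set whose annotated gene symbol is a member. In all, 98 of the 54675 probe sets on the array matched, and they covered 40 of the 42 genes. No probe set was annotated to FDFT1 or ACSL3 in the annotation used here, so these genes were not analysed here. Of the 98 probe sets, 91 are annotated to 1 gene and 7 jointly to a member and another gene: CYP51A1 with LRRD1, FADS1 with MIR1908 and ELOVL1 with MIR6734. A probe set was tested when its signal, which is in arbitrary units on a linear scale, exceeded 17.9 in at least 3 of the 6 arrays. This held for 83 of the 98, and 37 members had at least 1 tested probe set of their own.

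The study transfected HEK293 cells, an established line from human embryonic kidney, with a control siRNA (3 arrays) or a siRNA against BAHD1 (3 arrays), and took total RNA after 72 h. Each array is a separate biological replicate, and all 6 cultures received lipofectamine RNAiMAX and an Ambion siRNA in DMEM with Glutamax and fetal calf serum. The labels name no siRNA sequence, no second BAHD1 siRNA and no untransfected group. BAHD1 is a chromatin protein known to take part in gene silencing, and the comparison asks which transcripts differ after a siRNA against it.

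Cells make cholesterol from acetyl-CoA through mevalonate, squalene and a series of sterols. The SREBP proteins, encoded by SREBF1 and SREBF2, are transcription factors held in the membrane of the endoplasmic reticulum. When sterols are scarce, SCAP escorts them to the Golgi, where they are cut and released to switch on genes of sterol and fatty acid synthesis; when sterols are plentiful, the INSIG proteins retain SCAP. Export of sterols is governed separately, in large part by oxysterol-activated liver X receptors that induce ABCA1, ABCG1 and SREBF1.

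SREBP proteins often act on promoters beside the factor NF-Y, which binds the letters CCAAT. The promoters of 4 members with a probe set past the threshold are shown, because these genes moved in different directions: HMGCS1 and ELOVL5 had a probe set that fell, and MVK and ACSL4 one that rose. Each run gives the 250 bases before the annotated start, 5′ to 3′ on the gene's strand, from the RefSeq promoter table of build GRCh38.p14. For HMGCS1, the start farther upstream of the 2 in that table was used. Capitals mark CCAAT or its reverse complement ATTGG. The positions are chr5:43313413-43313662 (minus strand) for HMGCS1, chr6:53348951-53349200 (minus strand) for ELOVL5, chr12:109573544-109573793 (plus strand) for MVK and chrX:109733258-109733507 (minus strand) for ACSL4.
HMGCS1: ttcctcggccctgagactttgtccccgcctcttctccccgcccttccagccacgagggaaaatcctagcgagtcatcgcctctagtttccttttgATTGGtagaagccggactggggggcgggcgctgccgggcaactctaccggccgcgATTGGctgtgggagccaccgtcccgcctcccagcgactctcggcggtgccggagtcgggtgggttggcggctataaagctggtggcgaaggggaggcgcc
ELOVL5: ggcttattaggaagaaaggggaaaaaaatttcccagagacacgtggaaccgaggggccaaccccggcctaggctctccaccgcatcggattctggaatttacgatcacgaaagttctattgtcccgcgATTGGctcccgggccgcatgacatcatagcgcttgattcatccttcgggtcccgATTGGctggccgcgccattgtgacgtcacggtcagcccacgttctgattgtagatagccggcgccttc
MVK: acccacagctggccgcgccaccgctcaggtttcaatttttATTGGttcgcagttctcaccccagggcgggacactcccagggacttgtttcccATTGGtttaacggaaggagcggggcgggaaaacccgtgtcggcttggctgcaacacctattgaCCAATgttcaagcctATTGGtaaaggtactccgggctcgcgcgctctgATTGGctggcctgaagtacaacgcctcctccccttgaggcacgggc
ACSL4: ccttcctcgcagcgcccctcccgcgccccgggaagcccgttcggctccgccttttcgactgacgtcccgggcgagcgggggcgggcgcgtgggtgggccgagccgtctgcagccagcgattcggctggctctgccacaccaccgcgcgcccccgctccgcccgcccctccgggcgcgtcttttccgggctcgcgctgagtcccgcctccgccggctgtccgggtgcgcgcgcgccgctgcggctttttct
The HMGCS1 and ELOVL5 promoters each held 2 such matches, that of MVK held 5 and that of ACSL4 held 0; the promoter at the other start of HMGCS1 also held 0. Over the 53 promoters listed for 36 members, 28 held CCAAT on either strand (52.8%), against 32.0% of all 35116 promoters in the table. The GC box GGGCGG was in 44 of the 53 (83.0%, against 42.6% of all) and the E-box CACGTG in 6 (11.3%, against 6.34%). The sterol regulatory element TCACNCCAC was in 2 of the 53 (3.77%, against 0.883% of all), in promoters of SREBF2 and ACSL1. All 4 motifs were searched on both strands in the same 250 bases, and a match is a description of the letters, not a binding site. Among the 4 genes shown, CCAAT thus occurred for HMGCS1 and ELOVL5, with a probe set that fell, and for MVK, with one that rose. It was absent for ACSL4, which also rose. A link between motif and direction was not tested.

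Across the 6 arrays, the median signal ran from 15.9 to 19.5, and the log2 signals of arrays within a group had a Pearson r of 0.974 to 0.978, where pairs across groups had 0.966 to 0.972. BAHD1 itself, read by 1 probe set, had signals of 62.9, 55.7 and 46.7 in control arrays and 36.6, 46.8 and 41.2 in BAHD1 siRNA arrays, 76.0% of the control level. The groups overlapped, and its log2 difference of -0.40 ± 0.19 did not pass (limma adjusted p = 0.251). The arrays read RNA, so the level of BAHD1 protein is not known from them. All 8 markers listed for HEK293 were above the filter, with a summed signal, mostly of VIM, of 5356.3 to 5744.8 in control and 5041.5 to 5324.4 in BAHD1 siRNA arrays. Of these, VIM fell (-0.32, limma adjusted p = 0.0318), NEFL and NEFM rose (0.37 and 0.58, limma adjusted p = 0.0457 and 0.0473), and PAX2 was at 0.65 without overlap and did not pass. Of the markers of blood cells, endothelium, hepatocytes and adipocytes, 13 had a probe set, and 2 of these (PECAM1 and SERPINA1) passed the filter; by the brightest probe set of each, no signal exceeded 22.5. Poly-A control RNAs, which are added before labelling, were higher in BAHD1 siRNA arrays by 0.59 on the log2 scale, and 28S ribosomal RNA probe sets by 0.74, both with no overlap between groups. The ratio of 3′ to 5′ GAPDH signal was 0.926 to 0.955 in control and 0.956 to 0.966 in BAHD1 siRNA arrays. Dim genes tended to be higher in BAHD1 siRNA arrays and bright genes lower. Among genes in the dimmest quartile 67.1% were higher, with a median log2 difference of 0.16, and in the brightest quartile 42.5% were, with a median of -0.03. Of the 37 measured members, 15 and 14 lay in the third and the brightest quartile. After quantile or cyclic loess normalisation, the 4 member genes called below were called as well. The shift with brightness was not read out after these normalisations. Its part in the results, and that of the poly-A, 28S and GAPDH differences, was not tested.

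As a whole the pathway did not move one way. Each gene was represented by its brightest tested probe set, and a difference is BAHD1 siRNA minus control on the log2(signal + 1) scale, with the SE of the fit. Of the 37 members, 19 were higher and 18 lower, with a median log2 difference of 0.018, beside 0.025 over all 12529 genes measured in this way. In limma with a prior variance that follows the signal and Benjamini-Hochberg adjustment over all tested probe sets, 3 members rose (ACSL4, ACSL1 and MVK) and 1 fell (ELOVL5) at an adjusted p under 0.05. These 4 are 10.8% of the 37, where 5.52% of all genes passed (3.06% rose and 2.46% fell). By probe set, 4 of the 83 rose and 4 fell, where 4.45% of all tested probe sets passed (2.17% rose and 2.28% fell). The brightest probe set of ABCA1 passed the filter only through its BAHD1 siRNA arrays, so that its groups had to differ. Among the other 36 members the groups did not overlap in 12 (33.3%), 8 higher and 4 lower. The share was 27.6% of all genes left by the same exclusion (28.2% without it). Over all genes without the exclusion it rose with signal, from 19.8% in the dimmest quartile to 32.5% in the third and 35.4% in the brightest. The third and the brightest quartile hold 15 and 14 of the 37 members. With a single prior variance for all probe sets no member passed in limma, nor did any probe set on the array, although 16 of the 83 member probe sets had an unadjusted p under 0.05 in that fit and 24 in the other. Rose and fell below refer to the fit whose prior follows the signal. RNA was measured in bulk, so fewer cells expressing a gene and less RNA per cell cannot be told apart.

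**Figure D1:**
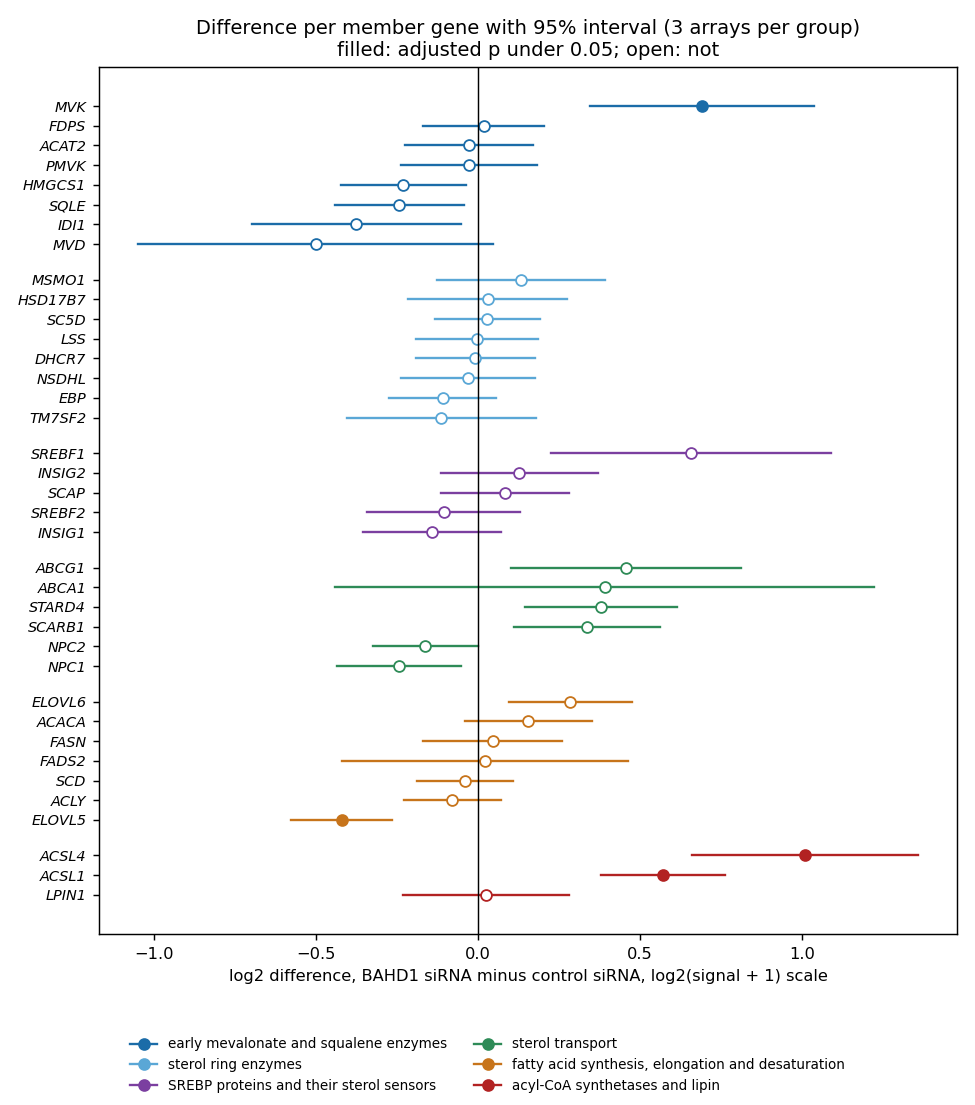
Log2 difference of each of the 37 measured members (BAHD1 siRNA minus control siRNA, log2(signal + 1) scale, horizontal axis) with its unadjusted 95% interval from limma, 3 arrays per group, coloured by role. Filled points passed at an adjusted p under 0.05: MVK, ACSL1 and ACSL4 lie to the right of 0 and ELOVL5 to the left, while the intervals of all 8 sterol ring enzymes include 0.

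**Figure D2:**
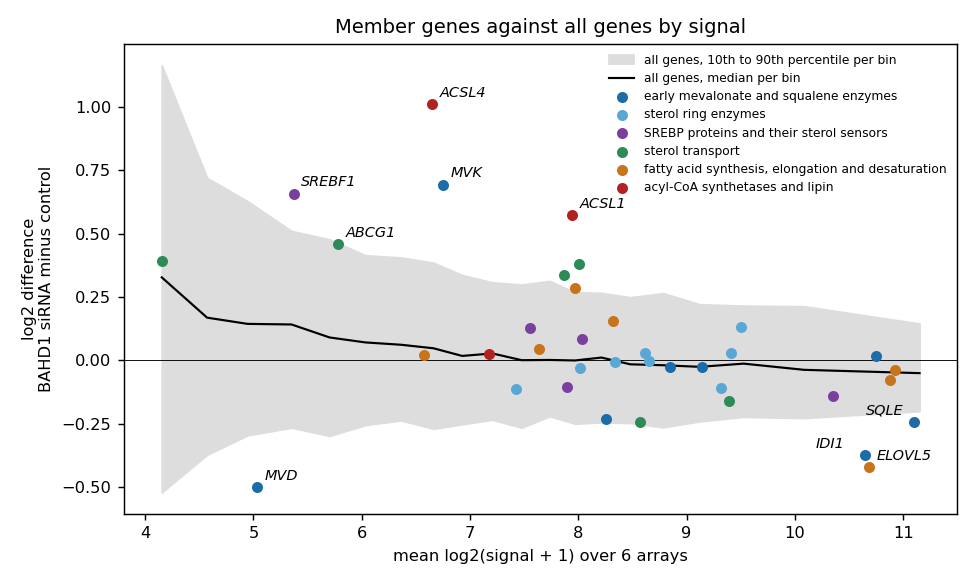
Log2 difference against mean log2(signal + 1) over the 6 arrays for the 37 members (points, coloured by role), with the median (line) and the 10th to 90th percentile (grey band) of all 12529 genes in 20 bins of signal. Most members lie inside the band; ACSL4, MVK, SREBF1, ACSL1, STARD4, SCARB1 and ELOVL6 lie above it and MVD, ELOVL5, IDI1 and SQLE below it.

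The clearest rises were in acyl-CoA synthetases, which activate free fatty acids by joining them to coenzyme A. ACSL4, which prefers arachidonic acid and other polyunsaturated fatty acids, had signals of 57.7, 70.2 and 84.0 in control arrays and 118.6, 146.8 and 163.4 in BAHD1 siRNA arrays. Every BAHD1 siRNA value lay above every control value, at 201.5% of the control level from group means of log2 values. Its log2 difference was 1.01 ± 0.16 (SE, 3 arrays per group; limma adjusted p = 0.00874, and 0.133 with a single prior). ACSL1, a synthetase for long-chain fatty acids, had signals of 198.7, 206.5 and 198.3 in control arrays and 280.1, 318.0 and 301.3 in BAHD1 siRNA arrays. The groups did not overlap, and the rise to 148.6% of the control level was a log2 difference of 0.57 ± 0.09 (limma adjusted p = 0.00723, and 0.124 with a single prior). Both calls remained when any single array was left out, with ACSL4 between 0.88 and 1.14 and ACSL1 between 0.53 and 0.62. A further probe set of ACSL1 did not follow: its signals were 93.5, 120.3 and 110.8 in control and 104.3, 89.2 and 102.9 in BAHD1 siRNA arrays, a log2 difference of -0.13 ± 0.13 (limma adjusted p = 0.636). The other 2 probe sets of ACSL4 were too dim to be tested, with no signal above 12.6. The phosphatidate phosphatase gene LPIN1, an enzyme of triglyceride synthesis, did not pass, at 0.02 ± 0.12 with an interval from -0.23 to 0.28.

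Fatty acid synthesis, elongation and desaturation genes went in both directions. ELOVL5, which elongates polyunsaturated fatty acids, was bright, with signals of 1852.8, 2023.5 and 1838.4 in control arrays and 1510.0, 1447.7 and 1316.0 in BAHD1 siRNA arrays. It fell to 74.8% of the control level without overlap, a log2 difference of -0.42 ± 0.07 (limma adjusted p = 0.0114, and 0.157 with a single prior). The call was lost when BAHD1 siRNA replicate 3 was left out (-0.36, limma adjusted p = 0.0527) and kept without any other array. Of its dimmer probe sets, 2 were tested and did not pass, at -0.14 ± 0.25 and 0.996 ± 0.41, the latter with signals between 11.2 and 48.8.

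ELOVL6, which elongates saturated and monounsaturated fatty acids, had the opposite sign. Its brightest probe set read 222.9, 219.0 and 236.4 in control arrays and 288.2, 259.0 and 280.2 in BAHD1 siRNA arrays, a log2 difference of 0.28 ± 0.09 that did not pass (limma adjusted p = 0.0855). A second, dimmer probe set read 103.8, 100.1 and 101.4 against 131.5, 154.8 and 137.1 and rose, by 0.46 ± 0.11 (limma adjusted p = 0.0403, and 0.141 with a single prior). In both probe sets the groups did not overlap, whereas the third lay at -0.25 ± 0.17. The rise of the second passed in 1 of the 6 fits with an array left out, that without BAHD1 siRNA replicate 1, and its adjusted p was between 0.0667 and 0.161 in the other 5.

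The central enzymes of fatty acid synthesis did not pass by their brightest probe sets. FASN, the fatty acid synthase, had signals of 194.3, 196.1 and 196.1 in control arrays and 216.8, 210.2 and 180.4 in BAHD1 siRNA arrays (0.05 ± 0.10, interval from -0.17 to 0.26). SCD, the stearoyl-CoA desaturase, was at -0.04 ± 0.07, with its dimmer probe sets between -0.31 and -0.18 and not called. ACACA, the acetyl-CoA carboxylase that makes malonyl-CoA, was at 0.16 ± 0.09. Its dimmer probe set had the opposite sign, at -0.24 ± 0.13 with overlapping groups. Neither SCD nor ACACA passed. ACLY, which makes cytosolic acetyl-CoA from citrate, differed between its probe sets. Its brightest lay at -0.08 ± 0.07 with overlapping groups. Its dimmest read 487.6, 500.0 and 467.9 in control arrays and 429.7, 356.4 and 344.6 in BAHD1 siRNA arrays and fell, by 0.37 on the log2 scale (SE 0.09, limma adjusted p = 0.0384, and 0.196 with a single prior), and this call was lost without control replicate 1 or 2 or BAHD1 siRNA replicate 2 or 3. The desaturase gene FADS2 had a log2 difference of 0.02 ± 0.20, with control signals from 64.9 to 134.3. The joint probe sets of FADS1 with MIR1908 lay between 0.06 and 0.09, and those of ELOVL1 with MIR6734 at 0.10 and 0.23, and none of these 5 passed.

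**Figure D3:**
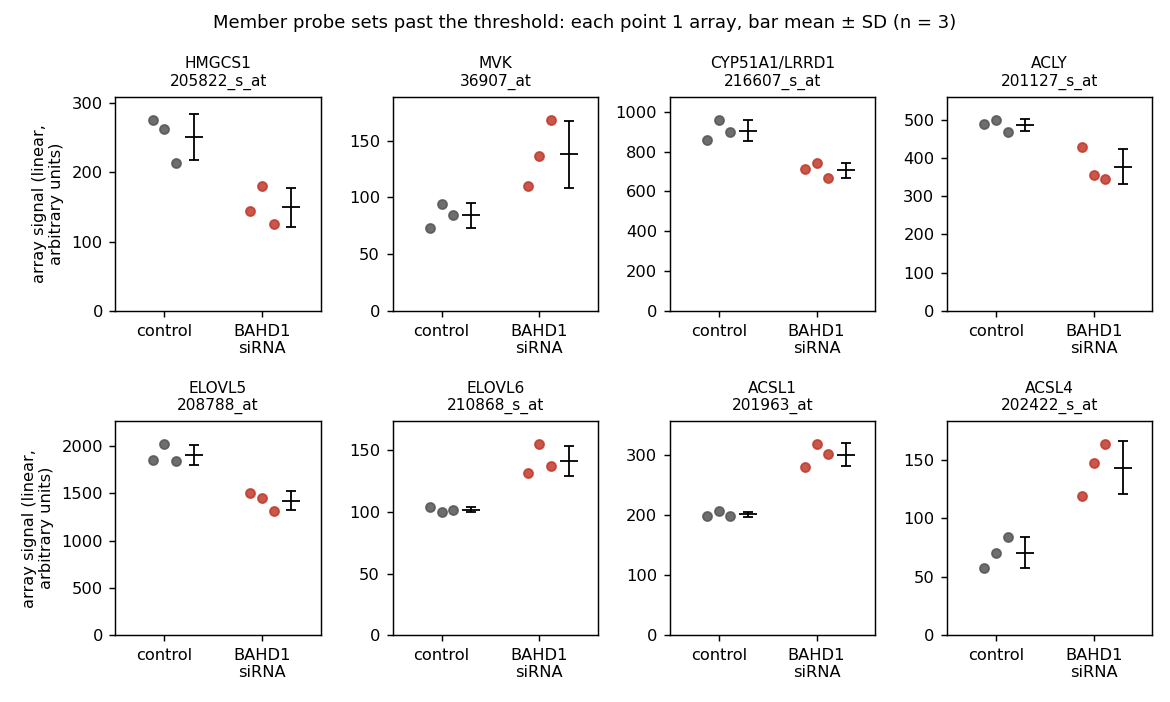
Array signal (linear scale, arbitrary units) of the 8 member probe sets past the threshold in the 3 control and 3 BAHD1 siRNA arrays, 1 point per array, with mean ± SD (n = 3). In all 8 the groups do not overlap; HMGCS1, CYP51A1 with LRRD1, ACLY and ELOVL5 are lower and MVK, ELOVL6, ACSL1 and ACSL4 higher in BAHD1 siRNA arrays.

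Of the 8 measured enzymes from acetyl-CoA to squalene epoxide, 1 rose and none fell by its brightest probe set. Of the 8, 6 were lower, where 45.6% of all genes were lower. ACAT2, PMVK, IDI1, FDPS and SQLE lie in the brightest quartile, where only 42.5% of all genes were higher. The median log2 difference of the 8 was -0.13. With an array left out it ran from -0.18 with 7 lower (without control replicate 3) to -0.08 with 5 lower (without BAHD1 siRNA replicate 3). Without control replicate 1, 4 were lower. MVK, the mevalonate kinase, had signals of 73.1, 94.6 and 84.8 in control arrays and 109.6, 136.1 and 168.4 in BAHD1 siRNA arrays. The groups did not overlap, and it rose by 0.69 ± 0.16 (limma adjusted p = 0.0321, and 0.174 with a single prior). The call remained in 1 of the 6 fits with an array left out, that without BAHD1 siRNA replicate 1, and the difference ran from 0.54 (without BAHD1 siRNA replicate 3) to 0.85. The other 2 tested probe sets of MVK lay at 0.03 ± 0.21 and -0.08 ± 0.25.

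HMGCS1, which makes HMG-CoA from acetoacetyl-CoA and acetyl-CoA, was lower in both of its probe sets. The brighter read 313.2, 359.0 and 320.9 in control arrays and 261.8, 298.8 and 285.6 in BAHD1 siRNA arrays, a log2 difference of -0.23 ± 0.09 that did not pass (limma adjusted p = 0.164). The dimmer read 276.0, 262.8 and 213.9 against 144.2, 180.0 and 124.9 and fell to 59.5% of the control level, at -0.75 ± 0.14 (limma adjusted p = 0.0139, and 0.157 with a single prior). Neither probe set had overlapping groups. The fall of the dimmer was lost without control replicate 1 or 2 or BAHD1 siRNA replicate 3, with an adjusted p of 0.0549 to 0.0592.

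SQLE, the squalene epoxidase, was the brightest member, with signals of 2233.1, 2689.6 and 2279.3 in control arrays and 2208.4, 2106.1 and 1780.1 in BAHD1 siRNA arrays. The groups lay side by side without overlap, at a log2 difference of -0.24 ± 0.09 (limma adjusted p = 0.155; -0.15 without BAHD1 siRNA replicate 3 and -0.16 without control replicate 2), and its other probe sets were at -0.17, -0.31 and 0.11. IDI1, the isopentenyl diphosphate isomerase, was at -0.38 ± 0.15 and MVD, which makes isopentenyl diphosphate, at -0.50 ± 0.25, and both had overlapping groups. The dimmer probe sets of IDI1 lay at -0.21, -0.07 and 0.20, and none passed. ACAT2, PMVK and FDPS lay between -0.03 and 0.02.

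The 8 measured sterol ring enzymes did not pass, with log2 differences from -0.11 (TM7SF2) to 0.13 (MSMO1) and intervals that together reached from -0.41 to 0.39. In all 8 the groups overlapped. LSS, which closes the ring to lanosterol, read 395.8, 430.1 and 384.6 in control arrays and 440.4, 405.3 and 364.8 in BAHD1 siRNA arrays (-0.0026 ± 0.088). DHCR7, a reductase of the last steps to cholesterol, read 311.4, 328.7 and 329.5 against 338.7, 333.7 and 294.0 (-0.0072 ± 0.085). Its other probe set, about as bright, was at -0.23 ± 0.11 with overlapping groups (limma adjusted p = 0.233). MSMO1, a sterol C4 oxidase, had control signals of 562.9, 806.5 and 727.6 and BAHD1 siRNA signals of 833.0, 781.6 and 669.4, and its difference was -0.015 without control replicate 1. EBP, the sterol isomerase, had 667.3, 667.9 and 655.2 in control and 656.5, 638.4 and 556.1 in BAHD1 siRNA arrays (-0.11 ± 0.08, and -0.04 without BAHD1 siRNA replicate 3), with its dimmer probe sets at -0.23 and -0.0042.

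CYP51A1, the lanosterol demethylase, was read only by probe sets shared with LRRD1, and these went in opposite directions. The probe set that fell read 857.0, 960.5 and 899.9 in control arrays and 714.4, 740.7 and 665.3 in BAHD1 siRNA arrays, at -0.36 ± 0.07 (limma adjusted p = 0.0196, and 0.171 with a single prior), a call lost without control replicate 2 or BAHD1 siRNA replicate 2 or 3. The other read 599.4, 773.6 and 779.3 against 861.7, 814.8 and 824.1 and was at 0.23 ± 0.09 (limma adjusted p = 0.189). Neither had overlapping groups, so no direction can be given for this gene.

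Within each group, the sterol synthesis enzymes tended to be high or low in the same arrays, a pattern looked for after the values were seen. Of the 16 enzymes measured from ACAT2 to DHCR7, 12 had their highest control signal in control replicate 2, where 33.4% of all genes did. In the BAHD1 siRNA group, 13 of the 16 were highest in replicate 1 and 11 were lowest in replicate 3, against 36.4% and 33.2% of all genes. The median of the 16, relative to the control mean of each gene, was -0.06, 0.10 and -0.05 in control replicates 1 to 3 and 0.06, 0.004 and -0.15 in BAHD1 siRNA replicates 1 to 3. The ranges of both groups thus overlapped. The median difference between groups was -0.03 with 11 of 16 lower; with an array left out it ran from -0.10 with 11 lower (without control replicate 3) to 0.05 with 6 lower (without BAHD1 siRNA replicate 3). The number lower was highest, 14, without BAHD1 siRNA replicate 1, and 8 without control replicate 2, where the median was -0.0094.

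None of the 5 genes for the SREBP proteins and their sterol sensors passed. SREBF1, which encodes the SREBP form best known for fatty acid synthesis, had signals of 30.8, 31.8 and 33.6 in control arrays and 42.5, 60.8 and 51.7 in BAHD1 siRNA arrays. All BAHD1 siRNA values lay above all control values, and the log2 difference of 0.66 ± 0.20 had a limma adjusted p of 0.0829 (exact two-sided permutation p = 0.1, the smallest that 3 arrays against 3 can give). SREBF1 lies in the dimmest quartile of all genes, where the median difference was 0.16, as do MVD, ABCG1 and ABCA1. SREBF2, whose product acts mainly on sterol genes, read 267.0, 255.7 and 218.9 against 239.1, 201.3 and 249.0 (-0.11 ± 0.11). Its dimmer probe sets lay at -0.05 and at -0.30, the latter without overlap and not past the threshold (limma adjusted p = 0.473). INSIG1, itself an SREBP target, read 1143.6, 1466.8 and 1537.6 in control arrays and 1188.1, 1341.4 and 1206.4 in BAHD1 siRNA arrays. Its log2 difference was -0.14 ± 0.10 with overlapping groups. Its other probe sets lay at -0.12 and at -0.30, the latter without overlap and not past the threshold (limma adjusted p = 0.0885). The difference of the brightest depended on the control array left out: -0.27 without replicate 1, -0.09 without replicate 2 and -0.06 without replicate 3. SCAP and INSIG2 were at 0.08 ± 0.09 and 0.13 ± 0.11.

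None of the 6 sterol transport genes passed. Leaving out ABCA1 for the filter, the groups did not overlap in 4 of 5, 3 higher and 1 lower, where 27.6% of all genes did not overlap. STARD4, which carries cholesterol through the cytosol, had signals of 235.0, 202.3 and 239.9 in control arrays and 253.5, 323.9 and 306.5 in BAHD1 siRNA arrays (0.38 ± 0.11, limma adjusted p = 0.0673). SCARB1, the receptor for high-density lipoprotein, read 220.3, 189.5 and 212.6 against 245.7, 297.9 and 245.6 (0.34 ± 0.10, limma adjusted p = 0.0864), while its other 2 tested probe sets were at -0.03 and -0.20. STARD4 passed without BAHD1 siRNA replicate 1 (0.48, limma adjusted p = 0.0282) and SCARB1 did not pass with any array left out.

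The sterol exporter gene ABCG1 had signals of 44.4, 42.2 and 52.0 in control arrays and 64.3, 61.6 and 64.8 in BAHD1 siRNA arrays, at 0.46 ± 0.16 (limma adjusted p = 0.133). Its other 2 tested probe sets were also higher, at 0.38 and 0.77. For ABCA1, which loads cholesterol onto apolipoproteins, the brightest probe set passed the filter only through its BAHD1 siRNA arrays. Its signals were 17.3, 11.7 and 15.3 against 18.1, 20.4 and 19.9 (0.39 ± 0.39). The other tested probe set of ABCA1 read 20.6, 25.9 and 3.8 in control arrays and 10.7, 20.2 and 26.3 in BAHD1 siRNA arrays. It was at 0.43 ± 0.63 with overlapping groups. NPC1, which moves cholesterol out of lysosomes, went the other way, with 455.3, 383.0 and 400.5 in control and 369.7, 351.7 and 324.0 in BAHD1 siRNA arrays (-0.24 ± 0.09, limma adjusted p = 0.142). NPC2, which hands cholesterol to NPC1, was at -0.16 ± 0.08 with overlapping groups.

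**Figure D4:**
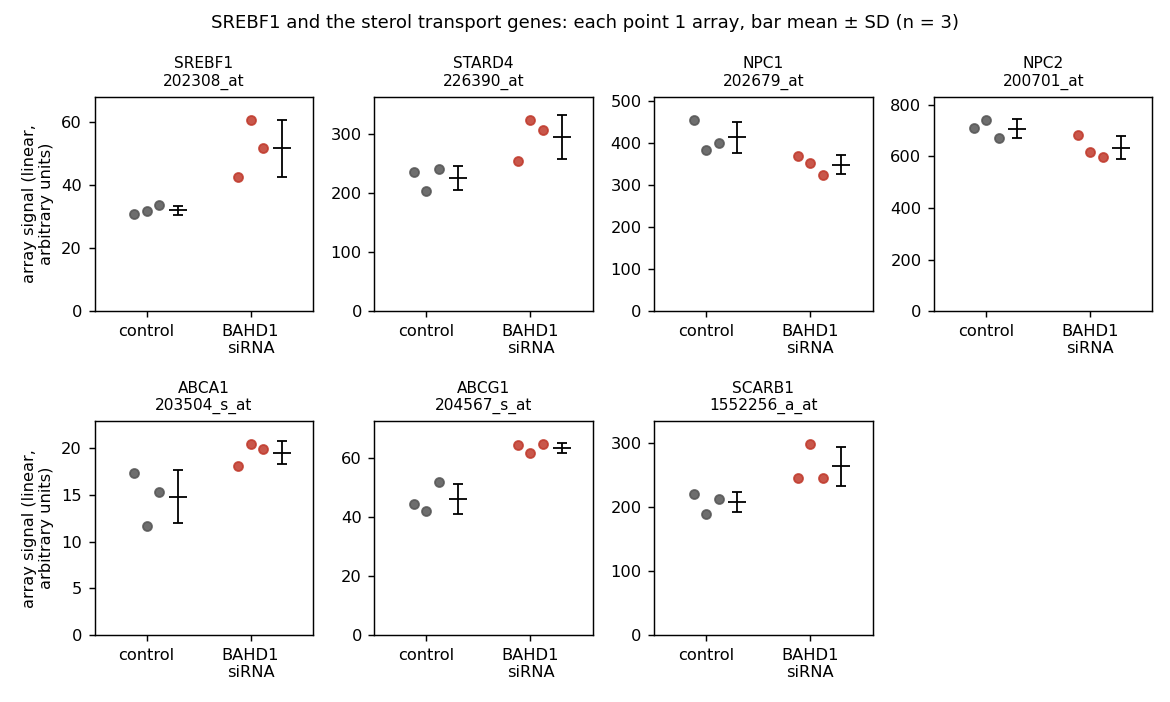
Array signal (linear scale, arbitrary units) of the brightest probe set of SREBF1 and the 6 sterol transport genes in the 3 control and 3 BAHD1 siRNA arrays, 1 point per array, with mean ± SD (n = 3). SREBF1, STARD4, ABCG1 and SCARB1 are higher in all BAHD1 siRNA arrays than in any control array and NPC1 lower. NPC2 overlaps, and the ABCA1 probe set shown passed the filter only through its BAHD1 siRNA values. None of the 7 passed the test.

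Probe sets of the same gene often disagreed. Of the 22 members with more than 1 tested probe set of their own, 11 had probe sets of both signs. Of the 7 members with a called probe set of their own, 6 had others tested, and in 0 of these was a second one called. The exception with a single tested probe set was ACSL4. When a gene was instead represented by the mean of its tested probe sets, 2 members passed, ACSL4 (1.01, limma adjusted p = 0.0165) and HMGCS1 (-0.49, limma adjusted p = 0.0284), and ACSL1, MVK and ELOVL5 did not.

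**Figure D5:**
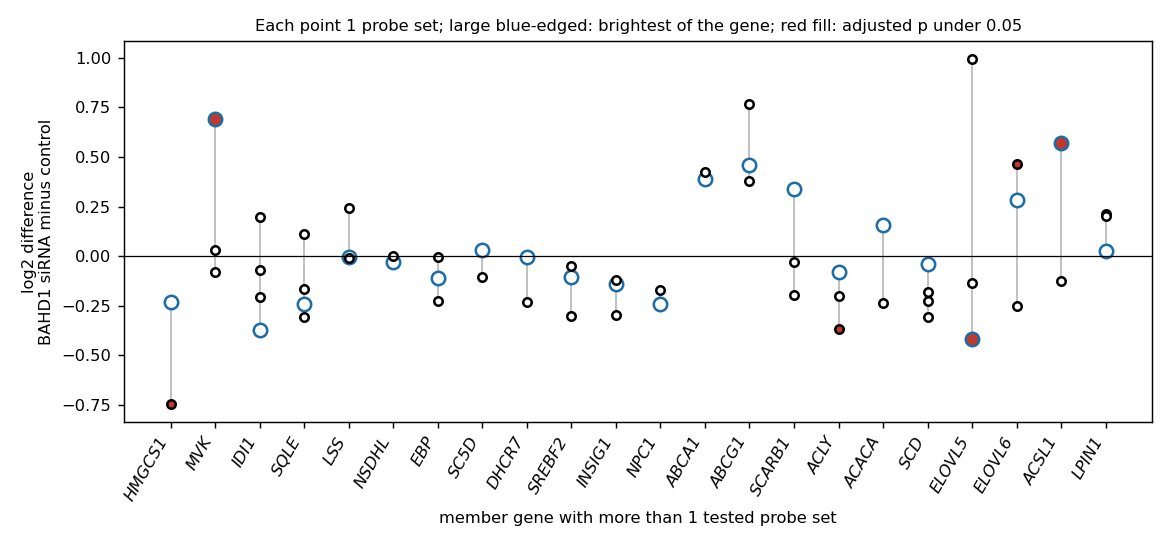
Log2 difference (BAHD1 siRNA minus control siRNA, vertical axis) of each tested probe set of the 22 members with more than 1 such probe set, 1 point per probe set; large blue-edged points are the brightest of the gene and red fill marks an adjusted p under 0.05. HMGCS1, MVK, ACLY, ELOVL5, ELOVL6 and ACSL1 each have 1 called probe set and at least 1 that was not.

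Other genes of sterol and fatty acid metabolism were read from a list of 64, of which 48 were measured: 2 rose, 3 fell and 43 did not pass, beside 3.06% and 2.46% of all genes. The median log2 difference was 0.041, where that of all genes was 0.025. DGAT2, which makes triglycerides from diacylglycerol, had signals of 94.0, 79.6 and 74.4 in control arrays and 112.2, 135.7 and 137.5 in BAHD1 siRNA arrays and rose by 0.63 ± 0.14 (limma adjusted p = 0.0259), with its other probe set at 0.45. ELOVL7, an elongase of long-chain fatty acids, read 142.9, 163.7 and 146.8 against 226.9, 225.1 and 193.4 and rose by 0.51 ± 0.11 (limma adjusted p = 0.0224), a call lost with centred array medians (0.37, limma adjusted p = 0.0972) and without a filter on dim probe sets (limma adjusted p = 0.0541). In both the groups did not overlap.

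Falls in that list were seen in SOAT1, HACD3 and TMEM97. SOAT1, which esterifies cholesterol for storage, read 586.0, 564.4 and 594.2 in control arrays and 458.1, 413.7 and 424.8 in BAHD1 siRNA arrays, at -0.43 ± 0.07 (limma adjusted p = 0.0113). Its 2 dimmer tested probe sets were at 0.24 and 0.04. HACD3, a dehydratase of the fatty acid elongation cycle, was lower in all 4 tested probe sets. Of these, 3 fell, at -0.37, -0.32 and -0.33 (limma adjusted p from 0.0127 to 0.0409), and the fourth was at -0.18. TMEM97, a sterol-responsive membrane protein that binds NPC1, read 1303.6, 1367.2 and 1302.8 against 1167.3, 1055.6 and 997.0, at -0.31 ± 0.07 (limma adjusted p = 0.0327), and its other 3 tested probe sets were lower as well, at -0.23, -0.16 and -0.02, without passing. Without a filter on dim probe sets the calls of DGAT2 and TMEM97 were lost as well (limma adjusted p = 0.0618 and 0.0721). None of these 5 genes passed with a single prior, and none of them passed without BAHD1 siRNA replicate 2. Each was past the threshold in at least 2 of the 6 fits with an array left out.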

How the data were processed

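The authors deposited 1 value for each probe set in each array, an intensity that was not log-transformed. The submitters' processing notes name both GCOS and GCRMA; which of them wrote the table was not given in the sources used here. Every array had a mean of 100 once the top and bottom 2% of values were trimmed. Probe sets were named from the platform annotation, and 0 symbols needed an update through RefSeq (GRCh38.p14). Control probe sets (62) were left out, log2(value + 1) was taken, and 27458 probe sets with a signal above the median of 17.9 in at least 3 arrays were tested.

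Groups were compared in R 4.3.3 with limma 3.58.1 (lmFit, then eBayes with trend and robust; no covariates), with Benjamini-Hochberg adjustment over all tested probe sets and a threshold of 0.05. Fold changes of dim probe sets are shrunk somewhat by the added 1. The number of arrays limits the precision. The fit was run on simulated arrays with independent noise for each probe set. These held no shift with brightness and no pattern shared by genes of an array, so they do not measure the error rate of the real arrays. The members, the lists and the choice of this fit over that with a single prior were made with earlier results of these data known. Values per array were given for members with a called probe set, for the 2 with the smallest p in each role and for called genes of the wider list (with the next 3 by p as differences); further members were added after their values were seen. Alternatives were a replicate block, other priors, filters, thresholds and pseudocount, 3 normalisations, array weights, the mean of a gene's probe sets, and each array left out.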

Additional observations from a re-analysis of the deposited data

How the results depend on the processing

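In limma with a single prior, 0 of all probe sets, 0 member probe sets, 0 member genes and 0 genes of the wider list passed, with 4843, 16, 10 and 12 at an unadjusted p under 0.05. Without a filter on dim probe sets, 54613 probe sets were tested. Of these 398 passed, with 5 member probe sets, 3 member genes and 2 genes of the wider list. MVK was lost there (limma adjusted p = 0.0733). At an adjusted p under 0.10 these counts were 2365, 15, 8 and 8, and with the mean of a gene's probe sets 2 members passed. With 1 array left out, 177 to 1174 probe sets, 2 to 10 member probe sets, 2 to 5 member genes and 0 to 5 genes of the wider list passed (that 0, without BAHD1 siRNA replicate 2, had 9 at an unadjusted p under 0.05). Member probe sets numbered 4, 3, 4 and 2 without control replicates 1 and 2 and BAHD1 siRNA replicates 2 and 3, respectively. The median over members ran from -0.045 (without BAHD1 siRNA replicate 1) to 0.051. Centring the array medians moved the median of all genes from 0.02 to -0.11 and that of members to -0.12. The gap of -0.0067 could not change, since centring shifts all genes of an array alike. With centred medians 192 probe sets rose and 1515 fell, against 596 and 625. Among member probe sets 3 rose and 8 fell, against 4 and 4. MSMO1 was at -0.0046 in that setting and between -0.015 and 0.24 with 1 array left out. Deviations of same-numbered arrays correlated at r = 0.0101, 0.0102 and 0.0239, where arrays of different number had -0.0278 to 0.017. Whether the cultures were prepared in pairs cannot be told from these values. With the replicate block, 1629 probe sets (1221 without it), 9 member probe sets and the same 4 member genes passed. STARD4 also passed with the stricter filter (limma adjusted p = 0.0417) and with array weights (0.0383), and SQLE with centred medians (-0.38, limma adjusted p = 0.0335). ACSL4, ACSL1, MVK and ELOVL5 passed after quantile and cyclic loess normalisation, with array weights, with log2(value + 16) and with the stricter filter. The cause of these changes between settings was not tested. Signal over background could not be judged from this table, which limits what can be said of dim probe sets.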

Other observations

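Of the 15 member probe sets too dim to be tested, 3 had groups that did not overlap (20%), where 10.8% of all 27155 probe sets left out by the filter did. A FADS2 probe set read 11.8, 11.9 and 11.4 in control arrays and 1.7, 1.4 and 2.5 in BAHD1 siRNA arrays, while the tested probe set of the gene was at 0.02. A SCARB1 probe set read 18.9, 14.1 and 9.5 in control arrays and 2.3, 3.5 and 1.9 in BAHD1 siRNA arrays, against 0.34 for the brightest of the gene. An ABCA1 probe set read 0.8, 0.5 and 0.5 against 1.9, 2.1 and 2.6. All of these signals but 1 lie below the median signal of 17.9.

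Of the 9 measured relatives in elongation and desaturation, ELOVL7 rose, HACD3 fell and 7 did not pass. Among these 7, the desaturase gene SCD5 was at 0.32 ± 0.09 (limma adjusted p = 0.0533) and HSD17B12, a reductase of the elongation cycle, at -0.23 ± 0.07 (limma adjusted p = 0.0866), while TECR, HACD2, ELOVL2, ELOVL4 and FADS3 lay between -0.05 and 0.10. SPRING1, which supports SREBP processing, was at 0.27 ± 0.09 (limma adjusted p = 0.0996). Of the 6 measured genes of oxysterol response and lipoprotein uptake, 3 were higher and 3 lower, at log2 differences from -0.24 to 0.12. In all 6 the groups overlapped and none passed, with NR1H3 at -0.22 and MYLIP at -0.02.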
